A study of Mus musculus with 8 samples.

Results

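The lipogenic enzymes described here are 10 genes, Fasn, Acaca, Acacb, Acly, Elovl6, Me1, Gpd1, Scd1, Scd2 and Thrsp, chosen by gene symbol from the 22609 symbols of a table of reads per gene, and all 10 were among the 15041 genes with enough reads to test. The table holds 8 RNA-seq libraries of pancreatic islets in 4 groups of 2, all from males on a mixed background that were 8 to 9 weeks old. In the group called BKO, the mice carried MIP1-CreERT, a tamoxifen-inducible Cre recombinase under an insulin promoter that acts in beta cells, with both Sirt6 alleles floxed (Sirt6 f/f), and were studied 2 weeks after tamoxifen. Of the BKO controls, replicate 1 was MIP1-CreERT Sirt6 f/+ and replicate 2 was MIP1-CreERT Sirt6 +/+. In the group called EKO, Ngn3-Cre, active from the progenitors of the islet endocrine lineage on, was combined with Sirt6 f/f, and its controls were Ngn3-Cre Sirt6 +/+. Every group therefore carried a Cre transgene, and there was no group without one. Whether the controls received tamoxifen is not given in the sources used here. Islets were left for 4 h in medium with 10% serum before RNA was extracted, and about 100 ng of total RNA went into stranded poly(A) libraries. The BKO controls came from different animals, since their genotypes differ. A gap between these controls cannot be told apart from an effect of that genotype difference. Nothing says that the other replicates were different animals, so every p-value here reflects how much these libraries varied, which could be technical variation.

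Fatty acid synthesis builds long-chain fat from sugar carbon. Citrate exported from mitochondria is cleaved to acetyl-CoA by ATP citrate lyase (Acly), acetyl-CoA is carboxylated to malonyl-CoA by the acetyl-CoA carboxylases (Acaca in the cytosol, Acacb at the mitochondrial outer membrane), and fatty acid synthase (Fasn) joins these units into palmitate with NADPH that malic enzyme (Me1) helps to supply. Elovl6 lengthens palmitate, the stearoyl-CoA desaturases Scd1 and Scd2 put a double bond into the products, and the cytosolic glycerol-3-phosphate dehydrogenase Gpd1 links glycolysis to the backbone of triglycerides. Thrsp, also called Spot 14, is no enzyme but a small protein named for its response to thyroid hormone in rat liver, where it rises together with the enzymes. In liver and fat the genes are known as targets of the transcription factors SREBP1c (Srebf1) and ChREBP (Mlxipl). Sirt6, the gene deleted, encodes a chromatin deacylase of the sirtuin family.

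Promoters are shown for 3 members, Thrsp because the ratio of its highest to its lowest library was the highest among the members, and Acly and Fasn because theirs were the lowest. Each sequence is the 150 bases before the annotated start site, read from RefSeq on the GRCm38.p6 build and written 5′ to 3′ on the strand of the gene, all 3 genes lying on the minus strand. Capitals mark the CCAAT box (CCAAT, or ATTGG on the other strand) in Thrsp and Fasn and the GC box (GGGCGG, or CCGCCC on the other strand) in Acly.
Thrsp (chr7:97417551-97417700): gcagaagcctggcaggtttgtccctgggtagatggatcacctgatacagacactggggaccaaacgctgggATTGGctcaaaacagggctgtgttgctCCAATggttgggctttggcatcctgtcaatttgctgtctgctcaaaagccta
Acly (chr11:100528001-100528150): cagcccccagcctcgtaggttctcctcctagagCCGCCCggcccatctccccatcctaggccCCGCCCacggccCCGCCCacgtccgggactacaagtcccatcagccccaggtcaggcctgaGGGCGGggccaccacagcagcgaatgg
Fasn (chr11:120824548-120824697): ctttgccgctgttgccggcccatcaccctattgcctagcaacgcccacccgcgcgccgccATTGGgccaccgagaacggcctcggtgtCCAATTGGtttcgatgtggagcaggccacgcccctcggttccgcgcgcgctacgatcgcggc

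The promoter table held 8 promoters of 7 members, including 2 for Me1, and none for Scd1, Scd2 or Gpd1. Each was 300 bases long, with 250 bases before the start site, and 6 motifs were searched on both strands. Thrsp held CCAAT boxes starting at -79 and -52 relative to the start site, and Fasn held them at -90, -62 and -59, of which the last 2 overlap each other. Acly held GC boxes at -117, -88, -76 and -27, and a CCAAT box at 37, after the start site. A CCAAT box was found in promoters of 5 members (Acacb, Acly, Fasn, Me1 and Thrsp) and in 37.41% of all 32851 promoters of the same length. The GC box was found in 2 members (Acly and Me1) against 35.66% of all promoters, and TATAAA in 1 member (Acacb) against 13.62%. The E-box CACGTG, the sterol response element core TCACNCCAC and the carbohydrate response element were in none of the 8 promoters, and in 7.15%, 1.24% and 0.56% of all promoters. These counts describe letters in a short window and say nothing of binding.

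Thrsp had a lower level in all 4 libraries with deleted Sirt6 than in all 4 controls, a difference that passed the adjusted test of DESeq2 over both models but not that of edgeR or limma-voom. For the other 9 members the 95% interval of the change included 0 in BKO and in EKO. edgeR's quasi-likelihood test, adjusted over all genes, called 0 of the 10 members in BKO, where it called 0% of all genes tested, and 0 in EKO, where it called 0.00665%. At an unadjusted p under 0.05, 1 member was found in BKO and 1 in EKO, Thrsp in each case, against 0.977% of all genes in BKO and 3.70% in EKO. After adjustment limma-voom called 0 members in BKO (0% of all genes) and 0 in EKO (0.00665%), and DESeq2 called 0 in BKO (0.0598% of all genes) and 0 in EKO (0.572%). The 10 members had a median log2 fold change of 0.04 (BKO) and -0.04 (EKO), beside 0.01 and -0.01 over all genes tested.

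Each library of the BKO model had 37302246 to 44442165 reads on genes, and each of the EKO model 22330252 to 23673180, so low genes were counted with less precision in EKO. The members took 0.352% to 0.428% of these reads. Sirt6 itself was at 12.6 to 24.4 CPM, the read count scaled to the library size with TMM, over the 8 libraries, and its log2 fold change was 0.34 ± 0.30 (SE) for BKO and 0.15 ± 0.30 for EKO. Counts over whole genes do not separate the floxed exons from the others, so they check nothing about the genotypes. The 10 beta cell markers had reads in every library and summed to 168030 to 307860 CPM. EKO control replicate 1 stood apart, with summed acinar cell markers of 9054 CPM against 192 to 2456 CPM in the other libraries, and summed stellate and fibroblast markers of 2458 CPM against 35.4 to 1008 CPM. Without it the EKO log2 fold change described below was -0.79 for Acaca, -4.24 for Thrsp and -0.32 for Scd2, which kept their direction, and 1.78 for Acacb, 0.44 for Scd1, -0.094 for Acly and -0.077 for Fasn, which changed sign. Elovl6, Me1 and Gpd1 kept their direction without it. Adipocytes express the same enzymes strongly. Of 12 adipocyte markers, 10 had no more than 8 reads in any library and together 3 to 12 reads per library. Plin1, Lep, Cfd and Adrb3 had 0 reads in every library. Fabp4 (292 to 1333 reads) and Pparg (398 to 913 reads), which are not confined to fat cells, were the markers with enough reads to test. The part of adipocytes in the levels of the members was not tested.

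**Figure D1:**
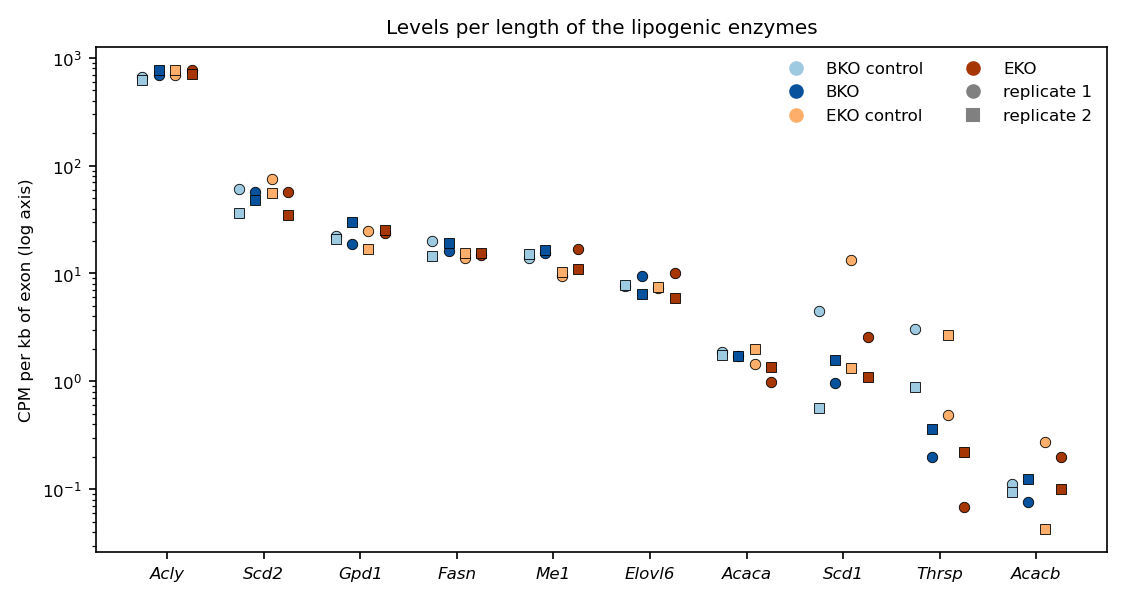
Level of each member per length, as CPM per kb of exon on a log axis, with members ordered by their median over the 8 libraries. Points are libraries, coloured by group and shaped by replicate. Acly lies above all other members in every library, and Thrsp and Scd1 have the highest ratios of highest to lowest library, 44.2 and 23.2.

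Per length of exon, Acly was the most abundant member, with a median of 697.5 CPM per kb over the 8 libraries and a range of 623 to 771. Scd2 followed at 56.4 CPM per kb (34.5 to 74.6), and no library brought Scd2 near Acly. Gpd1, Fasn and Me1 came next, at medians of 23.0, 15.4 and 14.5 CPM per kb, with ranges that overlapped from one to the next. Elovl6, at 7.57 CPM per kb (5.88 to 10.2), just reached the lowest Me1 library. The lowest medians were those of Acaca at 1.72 CPM per kb (0.985 to 1.99), Scd1 at 1.44 (0.568 to 13.2), Thrsp at 0.42 (0.0686 to 3.03) and Acacb at 0.107 (0.0423 to 0.276), and each of these overlapped its neighbour in the order. Scd1 in EKO control replicate 1 lay above every Elovl6 library and within the range of Me1, which was 9.52 to 16.9 CPM per kb.

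**Figure D2:**
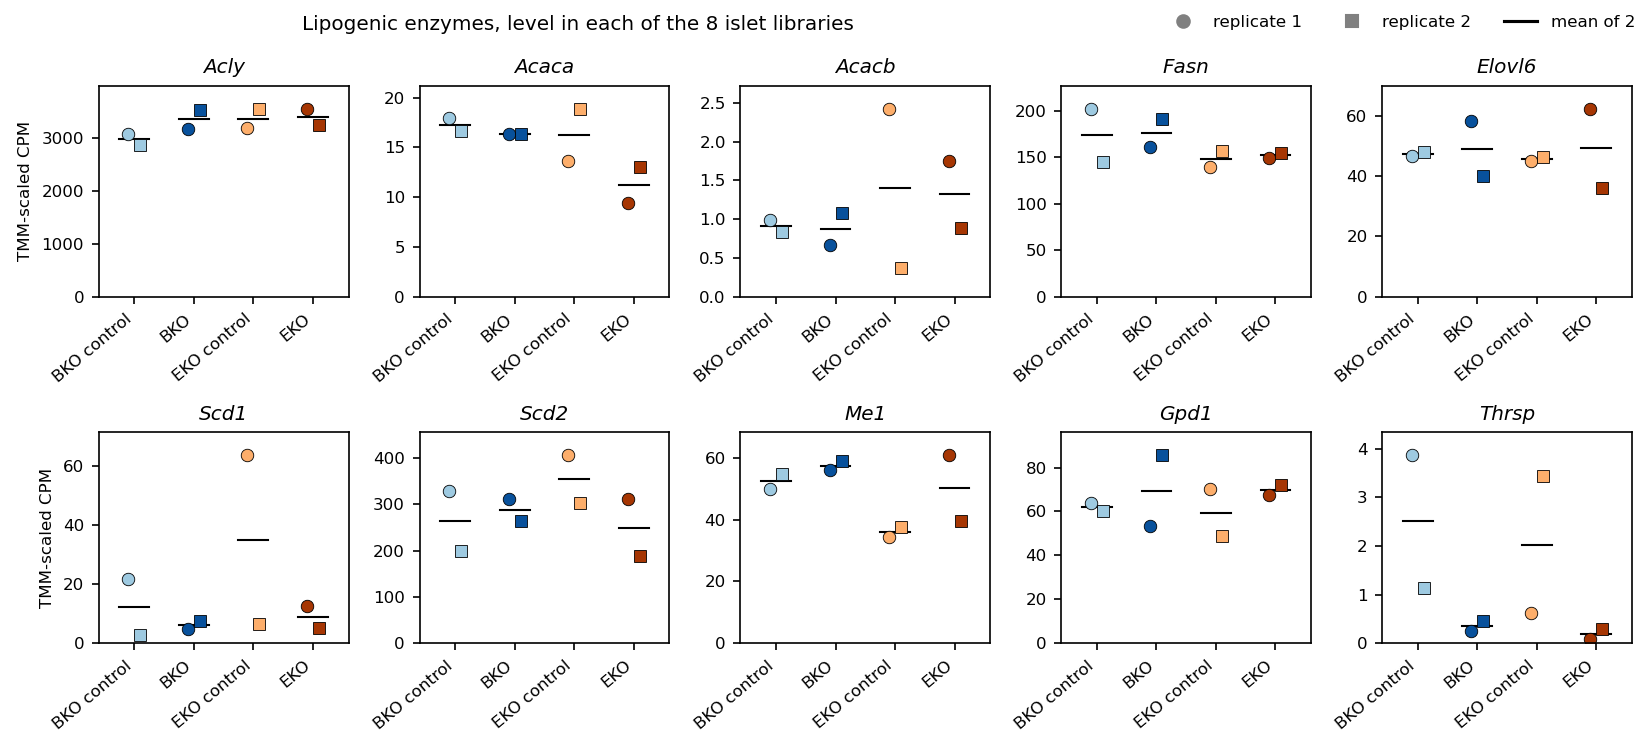
TMM-scaled CPM of each member in the 8 libraries, with a separate linear axis from 0 for each gene. Circles are replicate 1, squares replicate 2 and the bar is the mean of both. All 4 deleted libraries of Thrsp lie below all 4 controls, whereas Scd1 has single high libraries among the controls.

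Acly, which makes the cytosolic acetyl-CoA, was at 3075 and 2873 CPM in controls against 3169 and 3536 CPM in deleted islets of the BKO model, and at 3185 and 3542 against 3556 and 3246 CPM in the EKO model. Both BKO libraries lay above both of their controls, and the EKO libraries overlapped theirs. The log2 fold change was 0.17 ± 0.20 in BKO (SE, n = 2 per group, 95% interval -0.31 to 0.66) and 0.02 ± 0.20 in EKO (-0.47 to 0.50). Its highest library was 1.24 times its lowest, a smaller ratio than that of all but 3.62% of the 13167 tested genes with a mean of at least 1 CPM and reads in every library, whose median ratio was 1.84.

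Acaca, the cytosolic carboxylase that commits acetyl-CoA to fat, was at 17.9 and 16.7 CPM in controls against 16.3 and 16.4 CPM in deleted islets of the BKO model, and at 13.7 and 18.9 against 9.37 and 13.0 CPM in the EKO model. The deleted libraries lay below both of their own controls in each model, in BKO and in EKO by a margin smaller than the gap between the controls. As log2 fold changes these were -0.08 ± 0.26 in BKO (95% interval -0.70 to 0.54), -0.54 ± 0.26 in EKO (-1.17 to 0.08) and -0.31 ± 0.18 as the mean of both. About 30.4% of its 50-base stretches also occur in other genes, mostly Gm5182, and reads with several alignments were not counted, so its level is uncertain.

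Acacb, the carboxylase whose malonyl-CoA restrains fatty acid entry into mitochondria, was scarce, with 45 and 32 reads in controls against 26 and 45 in deleted islets of the BKO model, and 59 and 8 against 40 and 19 in the EKO model. Scaled to CPM, these were 0.985 and 0.828 against 0.661 and 1.08, and 2.43 and 0.372 against 1.75 and 0.89. The highest and the lowest library were both EKO controls, so that the groups overlapped in both models. This gave a log2 fold change of -0.06 ± 0.89 in BKO and -0.09 ± 0.90 in EKO. The 95% intervals, -2.20 to 2.09 and -2.25 to 2.07, include a 4-fold change in either direction. The fit has 1 estimate of spread per gene for all 4 groups, so the BKO interval also carries the gap between the EKO controls. The 95% counting intervals of the EKO controls, 1.85 to 3.13 CPM and 0.161 to 0.733 CPM, do not overlap. Without EKO control replicate 1 the EKO value was 1.78.

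Fasn, the enzyme that assembles palmitate, was at 202 and 145 CPM in controls against 161 and 191 CPM in deleted islets of the BKO model, and at 139 and 156 against 149 and 154 CPM in the EKO model. The widest gap was that between the BKO controls, and both deleted groups lay within the range of their controls. On the log2 scale the change was 0.02 ± 0.20 in BKO (95% interval -0.46 to 0.50) and 0.04 ± 0.20 in EKO (-0.44 to 0.52). A change of Fasn by more than 1.43-fold upward in EKO or 1.42-fold upward in BKO lay outside these intervals. None of its 50-base stretches occurs in another gene.

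Elovl6, which extends palmitate to stearate, was at 46.7 and 47.9 CPM in controls against 58.2 and 39.9 CPM in deleted islets of the BKO model, and at 45.1 and 46.2 against 62.3 and 36.1 CPM in the EKO model. In each model replicate 1 of the deleted group was above both controls and replicate 2 below both, and the controls lay close together. The log2 fold change was 0.05 ± 0.29 in BKO (95% interval -0.65 to 0.75) and 0.11 ± 0.29 in EKO (-0.60 to 0.81).

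Scd1, the desaturase that dominates in liver and fat, was at 21.9 and 2.74 CPM in controls against 4.70 and 7.58 CPM in deleted islets of the BKO model, and at 63.8 and 6.37 against 12.4 and 5.29 CPM in the EKO model. Replicate 1 of each control pair was high and replicate 2 was within or below the range of the deleted libraries, so the groups overlapped in both models. As log2 fold changes these were -1.01 ± 1.23 in BKO (95% interval -3.98 to 1.97) and -1.98 ± 1.27 in EKO (-5.03 to 1.07). These directions rested on 1 control library each. Without BKO control replicate 1, the Sirt6 f/+ library, the BKO value was 1.16, and without EKO control replicate 1 the EKO value was 0.44. The highest library was 23.2 times the lowest, and the 95% counting intervals of these libraries, 60.6 to 67.0 CPM and 2.25 to 3.32 CPM, are far apart.

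Scd1 was highest in the library with the highest acinar markers, EKO control replicate 1. That library was also the highest in summed stellate and fibroblast, immune cell, and Schwann cell and neuron markers. The BKO controls, with 951 and 777 CPM of acinar markers, had Scd1 at 21.9 and 2.74 CPM. Summed acinar markers were at 951 and 777 CPM in controls against 375 and 192 CPM in deleted islets of the BKO model, and at 9054 and 675 against 2456 and 303 CPM in the EKO model. Of 18 acinar markers tested, 17 had a negative log2 fold change in each model, with medians of -2.03 in BKO and -1.84 in EKO. With acinar markers as a covariate in the fit, the Scd1 value was 0.33 in BKO and -0.56 in EKO. The mean of both effects moved from -1.49 ± 0.88 to -0.12. The acinar level was itself lower on average in deleted islets of each model, so this fit does not separate it from the deletion. The part of acinar cells in the Scd1 result was not tested further.

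Scd2, the desaturase more typical of brain and of cells outside the liver, was above Scd1 per length of exon in every library. It was at 330 and 199 CPM in controls against 311 and 264 CPM in deleted islets of the BKO model, and at 407 and 304 against 312 and 188 CPM in the EKO model. BKO lay within the range of its controls, and the EKO libraries overlapped theirs at the lower end. This gave a log2 fold change of 0.12 ± 0.34 in BKO (95% interval -0.70 to 0.94) and -0.51 ± 0.34 in EKO (-1.33 to 0.31). About 4.56% of the 50-base stretches of Scd1 and 3.97% of those of Scd2 occur in other genes, among them each other, Scd3 and Scd4.

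Me1, the cytosolic malic enzyme, was at 50.1 and 54.6 CPM in controls against 56.1 and 59.0 CPM in deleted islets of the BKO model, and at 34.4 and 37.5 against 60.9 and 39.5 CPM in the EKO model. It was the member that was higher than both of its own controls in every deleted library of both models, though EKO replicate 2 exceeded the nearer control only slightly. On the log2 scale the change was 0.14 ± 0.22 in BKO (95% interval -0.39 to 0.66), 0.48 ± 0.22 in EKO (-0.04 to 1.01) and 0.31 ± 0.15 as the mean of both. Without EKO replicate 1 the EKO value was 0.14, so most of it came from that library, and without EKO control replicate 1 it was 0.39. About 22.9% of its 50-base stretches occur in other genes, mostly Gm7049, and a gene on the opposite strand, A330041J22Rik, overlaps it.

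Gpd1, which makes glycerol 3-phosphate, was at 64.0 and 60.0 CPM in controls against 53.4 and 85.7 CPM in deleted islets of the BKO model, and at 70.2 and 48.6 against 67.6 and 72.1 CPM in the EKO model. The BKO libraries lay on either side of their controls, and the EKO libraries near the higher of theirs. The log2 fold change was 0.17 ± 0.27 in BKO (95% interval -0.48 to 0.81) and 0.23 ± 0.27 in EKO (-0.41 to 0.88). Gm16537 overlaps Gpd1 on the opposite strand, and whether strand was used in counting is not given in the sources used here.

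Thrsp had the highest ratio of highest to lowest library, 44.2 against 23.2 for Scd1, although by the coefficient of variation Scd1 was wider, at 131% against 119%. It was also the member in which deleted and control libraries did not overlap across the models. It had 177 and 44 reads in controls against 10 and 19 in deleted islets of the BKO model, and 15 and 74 against 2 and 6 in the EKO model. As CPM this was 3.87 and 1.14 against 0.254 and 0.457 in the BKO model, and 0.617 and 3.44 against 0.0876 and 0.281 in the EKO model. All 4 deleted libraries lay below all 4 controls, which held for 1.05% of all genes tested. The nearest pair, EKO control replicate 1 and BKO replicate 2, had 95% counting intervals of 0.345 to 1.02 CPM and 0.275 to 0.714 CPM, which overlap. In bulk islets, fewer cells that express a gene and less RNA per cell cannot be told apart.

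Against its own controls, Thrsp had a log2 fold change of -2.80 ± 1.09 in BKO (95% interval -5.42 to -0.18) and -3.44 ± 1.17 in EKO (-6.25 to -0.62). Each size rested in part on 1 control library. It was -1.67 in BKO without BKO control replicate 1, the Sirt6 f/+ library, and -1.73 in EKO without EKO control replicate 2. The effects did not differ detectably, with a difference of -0.64 ± 1.49 and a wide interval of -4.23 to 2.96. As the mean of both models, Thrsp was 8.70-fold lower (log2 -3.12 ± 0.80, 95% interval -5.04 to -1.20), and its p ranked 109 among 15041 genes. It did not pass edgeR's quasi-likelihood test after Benjamini-Hochberg adjustment over all genes (adjusted p = 0.942). DESeq2 gave -3.16 with a Benjamini-Hochberg adjusted p of 0.0374 for this mean effect, at which it called 0.652% of all genes. Over 17 alternatives the value of this mean stayed negative, from -4.10 to -2.27, with adjusted p-values of 0.0374 to 1 (edgeR, DESeq2 or limma-voom).

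Cell type markers were set beside the Thrsp values. Alpha cell markers summed to 15083 and 22087 CPM in controls against 17800 and 18253 CPM in deleted islets of the BKO model. In the EKO model the sums were 28914 and 40611 against 23551 and 11829 CPM, so the sums separated the EKO groups but not the BKO groups. By the mean log2 CPM of the 10 markers the EKO groups overlapped, at 6.24 and 7.38 in controls against 6.02 and 6.35. Of 10 alpha cell markers, 9 had a negative log2 fold change in EKO, with a median of -0.85, and 8 in BKO, with a median of -0.10. The part of alpha cells in the Thrsp result was not tested. The mean effect on Thrsp was -4.10 with the acinar level as a covariate and -3.12 without it. That level was itself lower on average in deleted islets of each model, so this fit does not separate it from the deletion. Of the adipocyte markers, 10 of 12 were at or near 0 reads in controls and deleted libraries alike, as given above. The part of acinar cells or adipocytes in the Thrsp result was not tested.

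**Figure D3:**
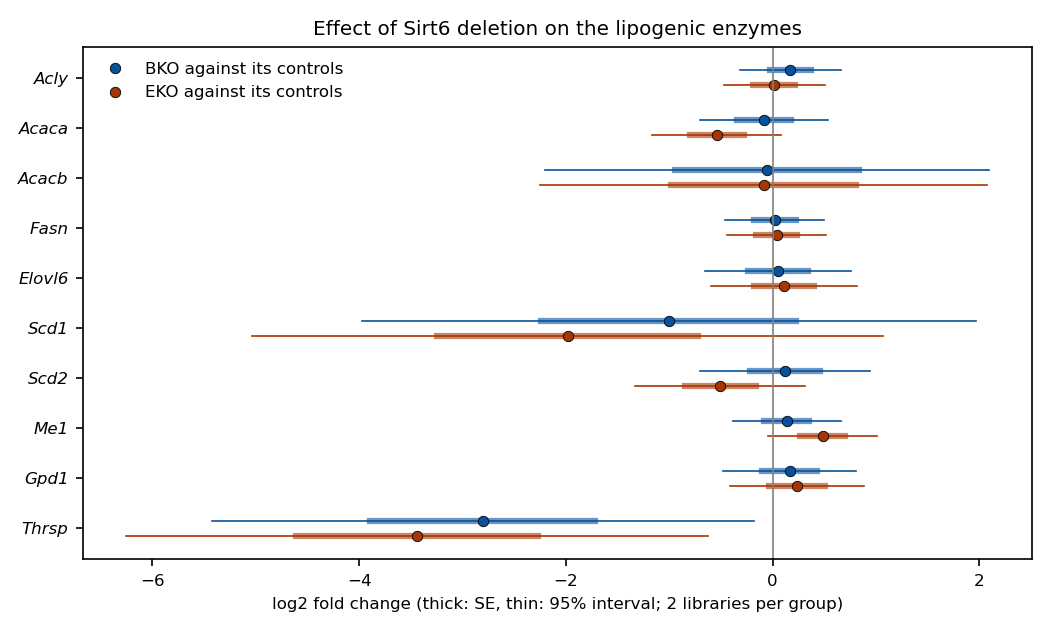
Log2 fold change of each member in BKO and in EKO against the controls of the model. Points are the edgeR estimates, thick bars the SE and thin bars the 95% interval. The interval of Thrsp lies below 0 in both models, and those of the other 9 members include 0.

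Across both models, each deleted library was higher than both of its controls for 1 member (Me1), as for 4.47% of all genes tested, and lower for 2 members (Acaca and Thrsp), as for 2.60% of all genes. In BKO alone 2 members (Acly and Me1) were higher without overlap, where 16.3% of all genes were, and 2 (Acaca and Thrsp) were lower, where 13.8% of all genes were. In EKO alone 1 member (Me1) was higher, where 12.5% of all genes were, and 2 (Acaca and Thrsp) were lower, where 9.57% of all genes were. A share over 10 genes moves in large steps, and nothing particular to the list is read from these counts. For the mean of both effects edgeR called 0 members after adjustment (0.00665% of all genes), and 1 member, Thrsp, had an unadjusted p under 0.05 (4.21% of all genes). limma-voom called 0 members for this mean (0.00665% of all genes).

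The effects of the models were compared directly as the EKO effect minus the BKO effect. The difference was 0.35 ± 0.31 for Me1 and -0.46 ± 0.37 for Acaca on the log2 scale, and its 95% interval included 0 for all 10 members. edgeR called 0 members by adjusted p (0% of all genes) and 0 at an unadjusted p under 0.05 (1.01% of all genes), where DESeq2 called 0 members (0.0399% of all genes) and limma-voom 0 (0% of all genes). Between the control groups, Me1 was higher in the BKO controls than in the EKO controls, with a log2 difference of 0.54 ± 0.22 that did not pass edgeR's quasi-likelihood test (Benjamini-Hochberg adjusted p = 0.883). It was the 1 member at an unadjusted p under 0.05 in that comparison, where 5.54% of all genes were, and 0 members passed the adjusted test of edgeR (0.00665% of all genes), DESeq2 (1.45%) or limma-voom (0.00665%). Cre line, tamoxifen, depth and any sequencer difference cannot be told apart between these controls.

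The other genes of the pathway were described in 6 lists with 104 tested genes, of which edgeR's adjusted test and limma-voom called 0 in any of the 5 comparisons. At an unadjusted p under 0.05 edgeR had 0 of them in BKO (0.977% of all genes tested), 4 in EKO (3.70%) and 6 for the mean of both (4.21%). Without EKO control replicate 1, an alternative chosen after seeing the data, 10 were at that p in EKO (7.09% of all genes), 0 passed the adjusted test of edgeR, and 36 of the 104 changed sign in EKO. DESeq2 called 0 in BKO (0.0598% of all genes), 1 in EKO (0.572%) and 1 for the mean (0.652%), Lpl in both cases. Between the controls it called Degs2 and Acsl3, where it called 1.45% of all genes. The genes below are those with the smallest unadjusted p in a list and comparison, unless another reason is given. Among 19 regulators of lipogenic transcription, 0 had an unadjusted p under 0.05 in BKO and 0 in EKO, with median log2 fold changes of 0.10 and 0.09. Insig2, which holds the SREBP escort protein in the endoplasmic reticulum, was at 67.0 and 69.6 CPM in controls against 91.8 and 82.3 CPM in deleted islets of the BKO model, and at 52.9 and 64.5 against 67.3 and 75.1 CPM in the EKO model. Each deleted library was above both of its controls, and the mean of both effects was 0.31 ± 0.11. Without EKO control replicate 1 this mean was 0.23. Mlx, the partner of ChREBP, had a log2 fold change of -0.28 ± 0.15 in EKO.

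The factors best known for driving these enzymes were singled out after their values were seen. Srebf1 was at 140.0 and 85.8 CPM in controls against 99.5 and 142 CPM in deleted islets of the BKO model, and at 84.4 and 130.3 against 90.1 and 107.5 CPM in the EKO model, and its groups overlapped in both models (0.10 ± 0.33 in BKO and -0.12 ± 0.33 in EKO). Mlxipl was at 134 and 147 CPM in controls against 191 and 265 CPM in deleted islets of the BKO model, and at 62.8 and 490.3 against 190.5 and 632 CPM in the EKO model. Replicate 2 was several times replicate 1 in both EKO-model groups, and its log2 fold changes were 0.70 ± 0.92 in BKO and 0.57 ± 0.92 in EKO. The estimate of spread is shared by all groups, so the SE in BKO also carries these EKO-model gaps. Mid1ip1, the paralogue of Thrsp, whose protein binds acetyl-CoA carboxylase, was at 106 and 101 CPM in controls against 98.7 and 133 CPM in deleted islets of the BKO model, and at 72.0 and 118 against 99.9 and 127 CPM in the EKO model. Its groups overlapped in both models, with log2 fold changes of 0.17 ± 0.28 and 0.26 ± 0.28. Without EKO control replicate 1 the EKO value was -0.43 for Srebf1, -0.29 for Mlxipl and -0.088 for Mid1ip1.

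Of 19 genes that supply acetyl-CoA and NADPH, 0 were at an unadjusted p under 0.05 in BKO or EKO, and the medians were -0.04 and 0.08. Mdh1, the cytosolic malate dehydrogenase, had a log2 fold change of -0.28 ± 0.17 in BKO, and Taldo1, of the pentose phosphate pathway, one of 0.32 ± 0.21 in EKO. Of 13 tested genes that control acetyl-CoA carboxylase, chiefly AMP-activated kinase subunits and their upstream kinases, 0 were at that p in either model. Cab39, a subunit of the LKB1 complex, was at -0.15 ± 0.16 in BKO and the kinase subunit Prkab1 at 0.22 ± 0.16 in EKO.

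**Figure D4:**
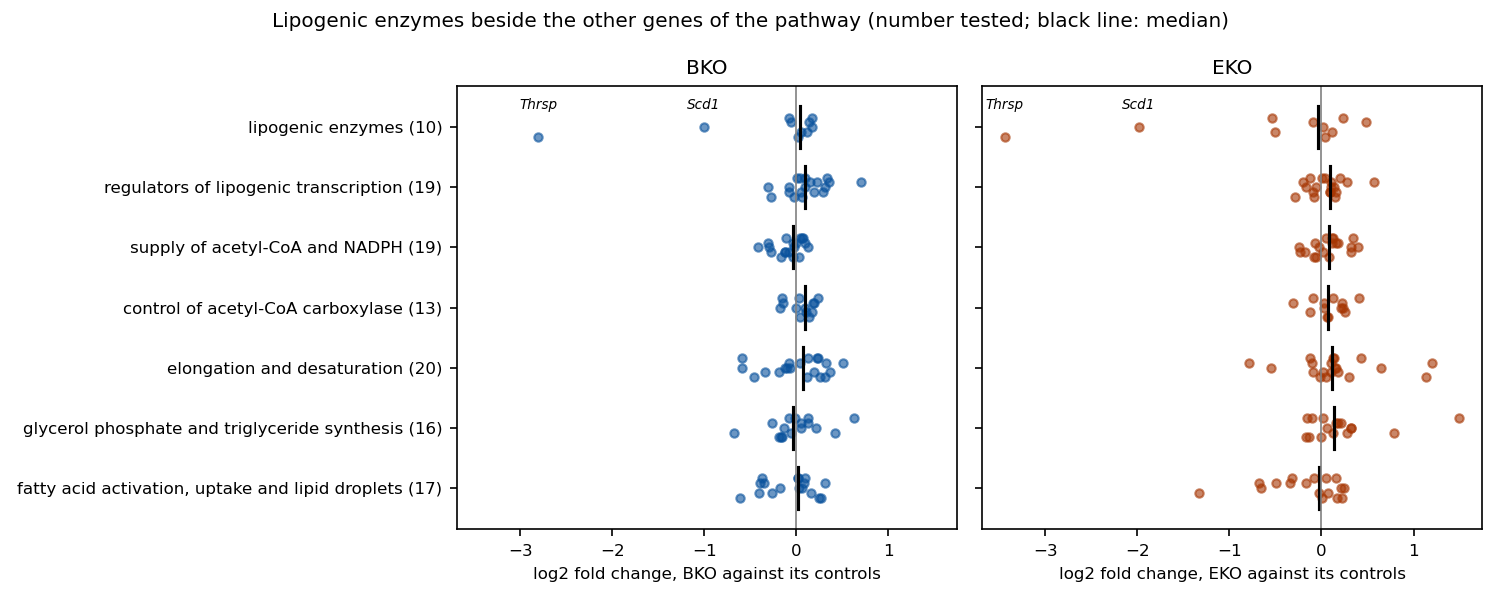
Log2 fold changes of the tested genes of each list in BKO and in EKO against the controls of the model, with the number tested in brackets. Points are genes and black lines list medians, which lie between -0.04 and 0.14. Thrsp and Scd1 are labelled where they stand left of all genes of the other lists in EKO.

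Of 20 tested genes of elongation and desaturation, 2 had an unadjusted p under 0.05 in EKO, both higher, and 0 in BKO. Fads2, the delta-6 desaturase of polyunsaturated fatty acids, was at 14.0 and 8.83 CPM in controls against 13.4 and 19.0 CPM in deleted islets of the BKO model, and at 19.1 and 12.4 against 35.1 and 37.4 CPM in the EKO model. Both EKO libraries stood above all others, with a log2 fold change of 1.20 ± 0.34 in EKO and 0.51 ± 0.33 in BKO, and a difference between the models of 0.69 ± 0.47. Fads1, the delta-5 desaturase, was at 57.3 and 56.8 CPM in controls against 71.7 and 61.2 CPM in deleted islets of the BKO model, and at 67.3 and 62.5 against 93.0 and 81.6 CPM in the EKO model. Each deleted library exceeded both of its controls in Fads1, by 0.22 ± 0.14 in BKO and 0.43 ± 0.14 in EKO on the log2 scale. Without EKO control replicate 1 the EKO value was 1.51 for Fads2 and 0.45 for Fads1.

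Of 16 tested genes of glycerol phosphate and triglyceride synthesis, 1 had an unadjusted p under 0.05 in EKO, Agpat4, an acyltransferase of glycerolipid synthesis, at 9.34 and 11.01 CPM in controls and 16.6 and 18.6 CPM in deleted islets (0.79 ± 0.29). In BKO 0 were at that p, and Lpin1, a phosphatidate phosphatase, had 0.42 ± 0.33. Of 17 tested genes of fatty acid activation, uptake and lipid droplets, 1 was at that p in EKO. This was Lpl, the lipoprotein lipase that frees fatty acids from circulating lipoproteins, at 163 and 207 CPM in controls against 158 and 123 CPM in deleted islets of the BKO model, and at 249.9 and 377 against 139.6 and 109.8 CPM in the EKO model. Its deleted libraries lay below their controls in both models, with log2 fold changes of -0.40 ± 0.27 in BKO and -1.33 ± 0.27 in EKO and a difference of -0.93 ± 0.38. Without EKO control replicate 1 the EKO value was -1.63 for Lpl and 0.64 for Agpat4. DESeq2 gave Lpl Benjamini-Hochberg adjusted p-values of 0.00232 in EKO and 0.00743 for the mean of both, where edgeR gave 0.757 and 0.714. Vldlr, a receptor for lipoproteins rich in triglyceride, had -0.39 ± 0.17 in BKO.

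Of the 194 tested genes of the pathway and marker lists, the one whose pattern over the 8 libraries was most like that of a member was found by the root mean square distance between standardised log2 CPM, where 0 is the same pattern. Fasn was nearest to Srebf1 (0.483, against a median of 1.42 over all candidates). Acacb was nearest to Col1a1 (0.181), a collagen of stellate cells and fibroblasts, which was at 32.4 and 8.54 CPM in controls against 12.7 and 23.9 CPM in deleted islets of the BKO model, and at 536 and 1.49 against 204 and 19.4 CPM in the EKO model. Both genes were highest in EKO control replicate 1 and lowest in EKO control replicate 2. For other members the nearest genes were Lpin1 for Acly (0.741), Prkaa2 for Elovl6 (0.569), Mlxip for Me1 (0.669), Prkag1 for Gpd1 (0.331), Tkt for Scd1 (0.375) and S100b for Scd2 (0.469). Genes compared over the same 8 libraries share their depth and cell makeup, so these distances are a description.

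The authors' deposited tables of their own comparisons list 99 genes for BKO and 243 for EKO, and 0 of the 10 members are in either. Of the 6 pathway lists, the authors' deposited table for EKO holds Fads2, with a log2 fold change of 0.85 and an adjusted p of 0.444, and Lpl, with -1.02 and 0.0757.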

How the data were processed

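Unnormalized counts of whole reads, listed by gene symbol for 8 libraries of mouse islets, were deposited by the authors. TopHat, HTSeq and build mm9 are named in the submitters' processing notes, without versions of the tools. Its last entries, the HTSeq classes of reads on no gene, stayed out of library sizes: reads with several alignments were 31.6% to 39.7% of a library, reads outside genes 8.19% to 11.1% and ambiguous reads 0.105% to 0.127%. The authors also deposited tables of their own log2 fold changes, p-values and adjusted p-values, per the file headers; how genes entered them is not given in the sources used here.

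Counts were fitted with edgeR 4.0.16 in R 4.3.3 (TMM, filterByExpr with a count minimum of 10, quasi-likelihood F test, all 8 libraries in 1 fit of 4 groups, no covariates), and p was adjusted by Benjamini-Hochberg over 15041 genes with a threshold of 0.05. Comparisons were BKO and EKO against their controls, the mean and the difference of these effects, and control against control. The SE is the absolute log2 fold change divided by the square root of its F value in that test. Intervals of 95% use this SE with 6.44 degrees of freedom, so one that leaves out 0 restates an unadjusted p under 0.05. Counting intervals are exact Poisson and cover counting error only. Exon lengths and shared 50-base stretches come from the GENCODE annotation of a later build, promoters from RefSeq (GRCm38.p6), so no mm9 coordinates are given. Alternatives were DESeq2 1.42.0 and its size factors, limma-voom (limma 3.58.1), no filter, the replicate number as a block, acinar or adipocyte marker levels as covariates, fits of 4 libraries and each library left out. The steps were run on simulated counts with a smaller spread than these data, to see that known fold changes were recovered. That run says nothing of error rates at the spread found here. All members were named, and from each pathway list and comparison the gene with the smallest p; exceptions are stated. Members and lists were chosen with earlier results of these data known. The 11 lists of cell markers cover adipocytes, hepatocytes, beta, alpha, delta and PP, acinar, duct, stellate, endothelial, immune and Schwann cells. The genes nearest in pattern to Thrsp and Acaca are not reported here.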

Additional observations from a re-analysis of the deposited data

How the results depend on the processing

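Of 496 values of the members recomputed under alternatives, 459 kept their direction and side of the threshold, 36 changed sign and 1, Thrsp as the mean of both effects, passed the test, in DESeq2, where the members called in that comparison numbered 1 in place of 0. Values below are log2 fold changes, and the cause of a change of sign was not tested. Acly in EKO was -0.00651 with DESeq2 size factors, -0.00651 with DESeq2, -0.00349 with the acinar covariate and -0.13 without the EKO-model libraries numbered 1, an alternative chosen after seeing the data. Fasn was -0.0665 in BKO and -0.0205 in EKO with the acinar covariate, and -0.0275 in EKO without those libraries. Acacb in EKO was 0.33 with limma-voom, 0.93 with the acinar covariate, 0.0211 with the adipocyte covariate, which rests on 2 genes, and 1.24 without those libraries, and in BKO 0.96 with the acinar covariate. Scd1 in BKO was 0.33 with the acinar covariate. Without those libraries Elovl6 in EKO was -0.36 and the difference between models for Me1 was -0.0674.

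Leaving out 1 library at a time gave ranges that crossed 0 for Acacb (-0.45 to 0.26 in BKO, -0.87 to 1.78 in EKO), Scd1 (-1.83 to 1.16 and -2.84 to 0.44), Fasn (-0.20 to 0.28 and -0.0765 to 0.13), Elovl6 (-0.25 to 0.30 and -0.34 to 0.45), Gpd1 (-0.22 to 0.47 and -0.00277 to 0.49), Scd2 in BKO (-0.20 to 0.53), Acly in EKO (-0.0940 to 0.0982) and the difference between models for Thrsp (-1.77 to 1.07). Where 1 library of a group was left, it was assumed to vary like the other groups. Of 28 results, 14 kept their direction in every alternative, among them Thrsp in BKO, in EKO and as the mean, and Acaca and Me1 in both models. Me1 in EKO was near 0 in 1 of these, at 0.068 without the EKO-model libraries numbered 1, against 0.48 in the main fit.

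With the replicate number as a block, Acacb was 0.0574 in BKO and 0.0688 in EKO. With a block within each model, also chosen after seeing the data, Acacb was 0.31 in EKO. Under the first block Scd1 moved from -1.01 to -0.0535 in BKO, and from -1.49 to -0.78 as the mean of both effects. The unadjusted p of edgeR for Scd2 in EKO was 0.0285 with that block and 0.185 in the main fit. No member changed its side of the adjusted threshold under either block. Deviations of same-numbered libraries correlated at 0.31 in the BKO model and 0.49 in the EKO model. Across the models they correlated at 0.41 between the control groups, 0.14 between BKO and the EKO controls, -0.090 between the BKO controls and EKO and -0.25 between BKO and EKO. These values do not settle whether the numbers pair samples within a model, and the main fit used no pairing. Thrsp and Acacb rest on few reads, from 2 and 8 in their lowest libraries.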

Other observations

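Markers of the remaining cell types lay, summed over each list, at 168 to 716 CPM for hepatocytes (a list that shares Ttr with the alpha cell list), 2049 to 5559 CPM for delta and PP cells, 697 to 3280 CPM for duct cells, 339 to 520.3 CPM for endothelial cells, 224 to 706 CPM for immune cells and 12.1 to 32.1 CPM for Schwann cells and neurons over the 8 libraries. edgeR's adjusted test called 0 genes of any of the 11 marker lists in BKO (0% of all genes) or EKO (0.00665%). DESeq2 called 0 of them in BKO (0.0598% of all genes). In EKO, where it called 0.572% of all genes, it called the alpha cell markers Irx1 and Irx2, both lower (log2 fold changes of -1.80 and -1.63). Of 91 marker entries tested over the lists, 2 were at an unadjusted p under 0.05 in BKO (0.977% of all genes) and 3 in EKO (3.70%). These were 1 delta and PP cell marker and 1 immune cell marker, higher in BKO, and 2 alpha cell markers and 1 acinar marker, lower in EKO. The beta cell, duct, stellate, endothelial, hepatocyte, Schwann cell and adipocyte lists had 0 in both models.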
